A study of Musca domestica with 10 samples.

Results

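Transcript levels at dorsal closure were compared with those at gastrula in whole embryos of the house fly Musca domestica. The comparison rests on 4 of the 10 libraries of a developmental series, which were chosen by their labelled stage: gastrula replicates 1 and 2 and dorsal closure replicates 1 and 2. Each library was made from a pool of 100 embryos, and the labels call the replicates biological. No strain, age or treatment is given in the labels. The series also holds 2 libraries each of syncytial blastoderm, cellular blastoderm and germ band extension. The blastoderm libraries served to estimate the spread and to show the earlier course of genes. The germ band extension libraries were left out, because an earlier look at these data had shown them to lie far apart.

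At gastrula the sheet of blastoderm cells folds inward and the germ layers (ectoderm, mesoderm and endoderm) are set up. At dorsal closure, much later in embryogenesis, the lateral epidermis of both flanks is drawn over the extraembryonic amnioserosa and fuses along the back. In Drosophila, where both events are best described, many differentiation genes of the epidermis, muscle, gut and nervous system are first transcribed between them, and many transcripts loaded into the egg by the mother are degraded early in development. The libraries are of whole embryos. A change in a transcript can therefore reflect more or fewer cells that make it or a different amount per cell, and these cannot be told apart here. Nor could the labelled stages be checked against marker genes, since the files list genes under MDOA identifiers without names, of which 0 of 15803 could be matched to RefSeq's gene table. Genes are therefore described by level and course, and by at most 2 identifiers in each direction.

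The 4 libraries held between 44432718 (dorsal closure replicate 2) and 81097276 (dorsal closure replicate 1) reads assigned to genes, with 75628963 and 49302976 in gastrula replicates 1 and 2. Levels are given in CPM, a gene's count as a part of the library total after TMM scaling, which corrects for differences in library composition. They are not divided by gene length, so they compare a gene between libraries and not one gene with another. A count of 3 corresponded to 0.039 and 0.069 CPM in the gastrula libraries and to 0.039 and 0.091 CPM in the dorsal closure libraries. The dorsal closure libraries were the less alike pair. They correlated at r = 0.845 across the 11071 tested genes, against 0.956 for the gastrula pair, and 2435 genes (22%) differed 4-fold or more between them, of which 1477 were higher in replicate 1. At gastrula 1083 genes (9.78%) did so. These correlations are descriptions, and genes are not independent replicates.

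More genes were detected at dorsal closure. The number of genes at or above 1 CPM was 7737 and 7700 in the gastrula libraries and 9815 and 9471 in the dorsal closure libraries, so both dorsal closure libraries lay above both gastrula libraries. At or above 10 CPM stood 5798 and 5617 genes at gastrula and 6864 and 6473 at dorsal closure. With 2 libraries per stage an exact two-sided permutation test cannot give a p below 0.333, which is the value both measures reached. Of the 15803 listed genes, 6956 reached 1 CPM in all 4 libraries and 5261 reached it in none of the 4. Another 1728 genes were below 1 CPM in both gastrula libraries and at or above it in both dorsal closure libraries, whereas 153 did the reverse. The dorsal closure libraries were not more evenly spread over genes: the most abundant genes that together held 50% of the gene reads numbered 267 and 164 at gastrula and 257 and 128 at dorsal closure (exact permutation p = 0.667, two-sided).

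Between gastrula and dorsal closure 3470 genes rose and 2174 fell, which is 31.3% and 19.6% of the 11071 genes tested and 51% together. The rises were large. Their median fitted log2 fold change was 5.55, and 2967 of them (85.5%) changed 4-fold or more and 2256 (65%) 16-fold or more. The falls were smaller, with a median log2 fold change of -2.04. Of the falls 1123 (51.7%) were 4-fold or more and 253 (11.6%) 16-fold or more. Over all tested genes, called or not, the median log2 fold change was 0.363. Calls are from edgeR's quasi-likelihood test with the replicate number as a block, at a Benjamini-Hochberg adjusted p under 0.05 over all genes tested. For genes near the floor at gastrula the size of a rise depends on the prior count added before taking logarithms. Of the rises 1496, and of the falls none, met the filter on low counts through the dorsal closure libraries alone. The sizes of rises and falls are therefore not directly comparable. Among the 4301 genes at or above 10 CPM in all 4 libraries, rises and falls had medians of 1.77 and -1.59.

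Fitted without the replicate block, rises numbered 2587 (23.4%) and falls 1089 (9.84%), and all 1089 of these falls and 2585 of the rises were among the calls with the block. Single gastrula libraries also carried weight: with the block, 1903 genes rose and 1138 fell without gastrula replicate 1, and 1851 rose and 1247 fell without gastrula replicate 2. The split between rises and falls followed the scaling and the libraries in the fit. Rises were 61.5% of the calls, but 51.5% (3034 higher and 2855 lower) when the germ band extension libraries were added, a fit in which the tested genes had a median log2 fold change of 0.0241. Of the calls, 3001 rises and 1925 falls were made under all 4 scalings and with all 10 libraries. A test against a minimum log2 fold change of 1, which is larger than these shifts of the median, gave 2855 rises and 1293 falls.

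**Figure D1:**
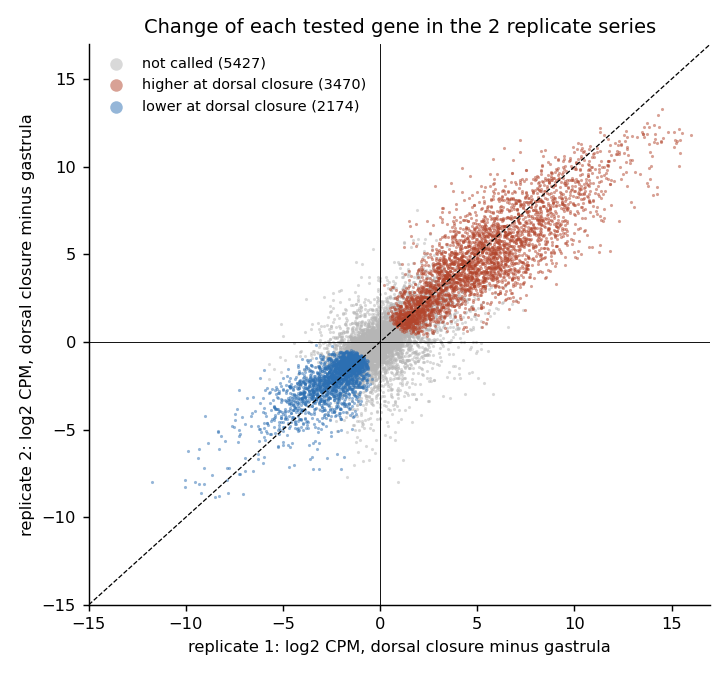
Each point is a tested gene, placed by its log2 CPM difference (dorsal closure minus gastrula, prior count 2) in replicate 1 on the x axis and in replicate 2 on the y axis, with the 3470 genes called higher in red, the 2174 called lower in blue and the others in grey. Rises reach much further from 0 than falls, and most genes lie near the dashed line of equal change (r = 0.908 across genes).

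The replicate series, each made of the gastrula and the dorsal closure library of one number, share no library and can be set side by side. Their log2 differences correlated at r = 0.908 across the tested genes, and 84.8% of all tested genes moved the same way in each. In replicate 1, 3518 genes were 4-fold or more higher and 1429 lower at dorsal closure. In replicate 2 it was 3355 and 1431. Of these, 3003 genes were higher and 909 lower by this margin in both series, together 79.1% of the replicate 1 genes and 81.7% of the replicate 2 genes. Only 27 genes moved 4-fold or more in opposite directions, 19 of them higher in replicate 1 and lower in replicate 2. The genes called higher had median paired differences of 4.9 and 4.47 on the log2 scale in replicates 1 and 2, and those called lower -2.14 and -2. The change was larger in replicate 1 for 60.3% of the rises and 63.8% of the falls, against 57% of all tested genes. The libraries of the stages did not overlap for 3370 of the 3470 rises and 2008 of the 2174 falls, and for 7475 of all 11071 tested genes (67.5%).

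Many of the genes called as rises were near the floor at gastrula, in part through the filter on low counts. Their median level was 0.279 and 0.367 CPM in the gastrula libraries and 27.8 and 20.7 CPM in the dorsal closure libraries, and 1962 of the 3470 (56.5%) were below 1 CPM in both gastrula libraries, against 27.4% of all tested genes. By contrast, the genes that fell were well expressed at gastrula, at a median of 75.5 and 65.8 CPM, and stood at 15.6 and 16.4 CPM at dorsal closure. Of these 2174 genes, 1889 were at or above 10 CPM in both gastrula libraries. At dorsal closure 1163 were still at or above 10 CPM in both libraries and 165 were below 1 CPM in both. Most falls were thus reductions to a level that was still measured, not losses. The filter on low counts favours rises here, since 1496 of the 3470 genes that rose, and none of those that fell, met it through the dorsal closure libraries alone. Among the 9170 genes that met it without those libraries, 1974 rose and 2174 fell. The gastrula levels of the rises were not counted without the 1496 genes. These passed the filter only at dorsal closure and so add to the low gastrula levels.

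**Figure D2:**
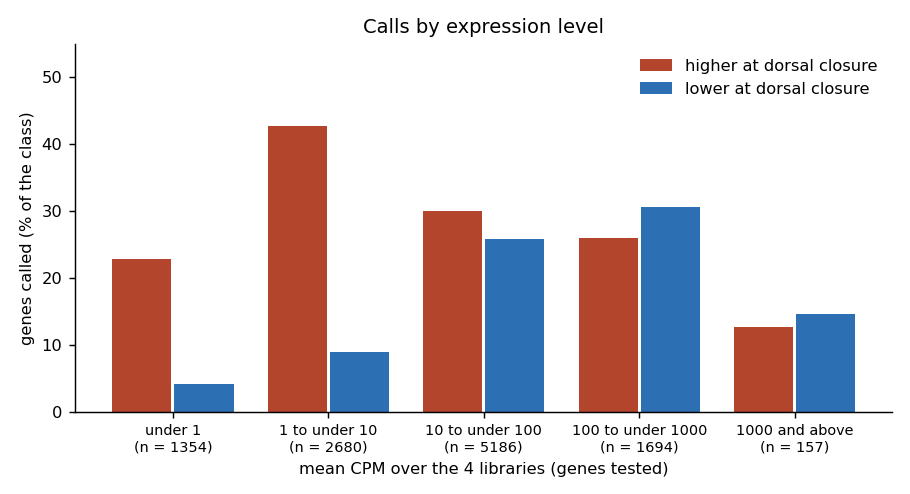
Bars give the percentage of tested genes called higher (red) or lower (blue) at dorsal closure, in classes of the mean CPM over the 4 libraries given on the x axis with their size. Rises were more frequent than falls under 1 CPM (22.9% against 4.14%) and at 1 to under 10 CPM (42.8% against 8.92%). They were also more frequent at 10 to under 100 CPM (30% against 25.8%). Falls were slightly more frequent among genes of 100 to under 1000 CPM (30.6% against 25.9%). The filter on low counts favours rises and enters this balance, and its effect at low levels cannot be told apart from the excess of rises.

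The balance between rises and falls differed with the level of expression. The filter on low counts enters it, since 1496 of the rises and none of the falls met it through the dorsal closure libraries alone. The classes were not counted without those genes, so the excess of rises at low levels cannot be told apart from the effect of the filter. Under 1 CPM on the mean of the 4 libraries, 310 of 1354 genes rose (22.9%) and 56 fell (4.14%). Among genes with a mean of 1 to under 10 CPM over the 4 libraries, 1147 of 2680 rose (42.8%) and 239 fell (8.92%). Among those of 100 to under 1000 CPM, 438 of 1694 rose (25.9%) and 519 fell (30.6%). At 1000 CPM and above, 20 of 157 genes rose (12.7%) and 23 fell (14.6%). The 4301 genes that reached 10 CPM in all 4 libraries included 638 rises (14.8%) and 1163 falls (27%), whose log2 fold changes had medians of 1.77 and -1.59. Requiring 10 CPM at both stages leaves out rises from a low level, which were more numerous than falls to one, so the split in this class is in part set by how the class was cut and is given as a description. In these 4301 genes, 1790 (41.6%) changed less than 2-fold in both replicate series.

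A set of 662 genes switched from below 1 CPM in both gastrula libraries to at or above 10 CPM in both dorsal closure libraries. Their median was 0.0779 and 0.115 CPM in the gastrula libraries, rising to 53.3 and 37.3 CPM in the dorsal closure libraries, and 114 of them reached 100 CPM and 7 reached 1000 CPM in both dorsal closure libraries. No read was counted for 169 of them in gastrula replicate 1 and for 128 in gastrula replicate 2. All 662 were among the rises called, against 31.3% of all tested genes. The set was cut on the same libraries that the test compares, so this is no separate support. They held 0.0116% and 0.0125% of the gene reads at gastrula and 11.4% and 5.35% at dorsal closure. The dorsal closure libraries differed in this set: 429 of the 662 genes were higher in replicate 1, with a median ratio of replicate 1 to replicate 2 of 1.48, and 92 genes were 4-fold or more higher in replicate 1, whereas 17 were so in replicate 2. The set numbered 1011 genes when dorsal closure replicate 1 alone stood for the stage and 802 when replicate 2 did.

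The mirror image was rare. By the same floors 18 genes went from at or above 10 CPM in both gastrula libraries to below 1 CPM in both dorsal closure libraries. In the gastrula libraries their medians were 40.9 and 21.4 CPM, against 0.131 and 0.242 CPM in those of dorsal closure. All 18 were called lower, against 19.6% of all tested genes, and here too the set was cut on the libraries tested. In 16 of them the level was already at or above 10 CPM in both cellular blastoderm libraries, 11 were below 1 CPM in both syncytial blastoderm libraries, and 9 met both conditions. With a lone library standing for its stage, the number was 34 when gastrula replicate 2 was left out, and 48 or 51 when dorsal closure replicate 1 or 2 was, each far below the onset set.

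The identifiers with the largest changes are MDOA001022 and MDOA008182 among rises and MDOA014278 and MDOA010623 among falls. They lead 398 rises and 624 falls that reached at least 100 CPM in both libraries of the higher stage, had at least 10 counts in each library of the lower stage and changed the same way between every gastrula and every dorsal closure library. What these genes encode is not given in the sources used here.

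MDOA001022 stood at 0.13 and 0.528 CPM in gastrula replicates 1 and 2 and at 2449 and 1426 CPM in dorsal closure replicates 1 and 2. Both dorsal closure libraries were thus far above both gastrula libraries, with replicate 1 the higher. The fitted rise was 13.06 ± 1.45 on the log2 scale (SE), at an edgeR adjusted p of 0.00029 with the block and 0.0039 without. MDOA008182 was measured at 0.182 and 0.276 CPM in the gastrula libraries and at 738.7 and 333.6 CPM in those of dorsal closure. It rose by 11.2 ± 0.749 on the log2 scale (SE), at an edgeR adjusted p of 2.4e-05 with the block and 0.0014 without. In the 4 blastoderm libraries MDOA001022 was between 0 and 0.306 CPM and MDOA008182 between 0.0615 and 0.219 CPM, so neither had been expressed above 1 CPM at any earlier stage examined.

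MDOA014278 was at 284.5 and 471.4 CPM in the gastrula libraries and, in those of dorsal closure, at 0.236 and 1.48 CPM. Its fitted change was -9 ± 0.818 on the log2 scale (SE), at an edgeR adjusted p of 6.5e-05 with the block and 0.0018 without. MDOA010623 stood at 1973 and 1817 CPM at gastrula, where the libraries lay close together, and at 0.537 and 7.05 CPM at dorsal closure, where they did not. The fitted change was -9.25 ± 1.29 on the log2 scale (SE), at an edgeR adjusted p of 0.00086 with the block and 0.0034 without. Both genes were transient. In the syncytial and then the cellular blastoderm libraries, MDOA014278 was at 0.896 and 1.02 CPM and at 573.2 and 453.8 CPM. For MDOA010623 these levels were 0.582 and 0.84 CPM and then 1011 and 460 CPM. In both named falls the level was higher in dorsal closure replicate 2 than in replicate 1, and in both named rises it was lower.

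**Figure D3:**
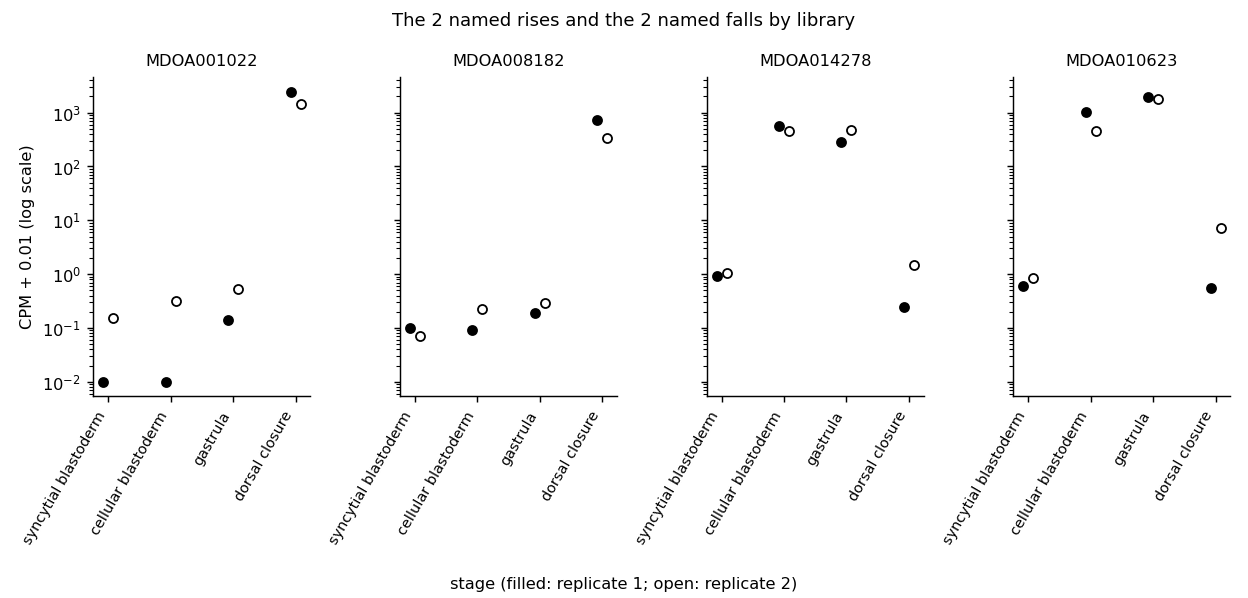
Each panel gives the CPM plus 0.01 of 1 identifier on a log axis in the 8 libraries, with filled points for replicate 1 and open points for replicate 2. The rises MDOA001022 and MDOA008182 are below 1 CPM until gastrula and at 333.6 CPM or more at dorsal closure, and the falls MDOA014278 and MDOA010623 are at 284.5 CPM or more at cellular blastoderm and gastrula and below 10 CPM at the other stages shown.

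The blastoderm libraries, which the contrast does not compare, show where the changed genes came from. Of the 2174 genes that fell, 1862 (85.6%) had reached 10 CPM in both syncytial blastoderm libraries, against 53% of all tested genes and 64% of those that met the filter without the dorsal closure libraries. Their median stayed between 74.9 and 93.1 CPM in all blastoderm and gastrula libraries and then stood at 19.8 and 20.8 CPM at dorsal closure. In other words, these transcripts were present from the start, changed little in the median up to gastrula, and fell after it. Genes called as falls are chosen in part for a high gastrula level. Of the 2174 falls, 86.9% were at or above 10 CPM in both gastrula libraries, against 48.2% of all tested genes. Their presence at earlier stages is therefore not independent of the choice. A smaller group of 145 falls (6.67%) had been below 1 CPM in both syncytial blastoderm libraries. Of these, 56 had reached 10 CPM in both cellular blastoderm libraries and 26 were below 1 CPM in both. The 145 genes had a median of 14.4 and 6.74 CPM in the cellular blastoderm libraries, 22.2 and 15.8 CPM in those of gastrula and 0.537 and 0.847 CPM in those of dorsal closure. Their median log2 fold change was -4.28, against -1.89 for the 1862, and 131 of the 145 fell 4-fold or more.

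The genes that rose divided differently, in part through the filter on low counts. Of the 3470, 2157 (62.2%) were below 1 CPM in both syncytial blastoderm libraries, against 33.7% of all tested genes, and 1806 were below 1 CPM in every blastoderm and gastrula library. The filter enters this share, since many genes low at the earlier stages were tested because they were high at dorsal closure. Among genes that met the filter without the dorsal closure libraries, 663 of 1974 rises (33.6%) were below 1 CPM in both syncytial blastoderm libraries, against 20% of the 9170 such genes. Most rises among these genes thus did not start below 1 CPM. The median of these 1806 was 0.026 and 0.023 CPM in the gastrula libraries, against 9.82 and 5.66 CPM in the dorsal closure libraries, where more of them stood below 10 CPM than above it. A further 959 (27.6%) had reached 10 CPM in both syncytial blastoderm libraries. At that stage their median was 56.9 and 61.7 CPM. It was lower in the cellular blastoderm (25.1 and 31.9 CPM) and gastrula libraries (16.4 and 16.3 CPM) and higher again in those of dorsal closure (80.8 and 72.5 CPM). Genes called as rises are chosen in part for a low gastrula level, so a dip at that stage is not independent of the choice. The blastoderm levels are not part of the contrast, although those libraries entered the estimates of the spread and the block. In 28 of the 959 genes the gastrula level was below 1 CPM in both libraries. Medians of these 28 were 29.3 and 29.6 CPM at syncytial blastoderm, 0.364 and 0.344 CPM in the gastrula libraries and 9.13 and 8.65 CPM in the dorsal closure libraries.

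**Figure D4:**
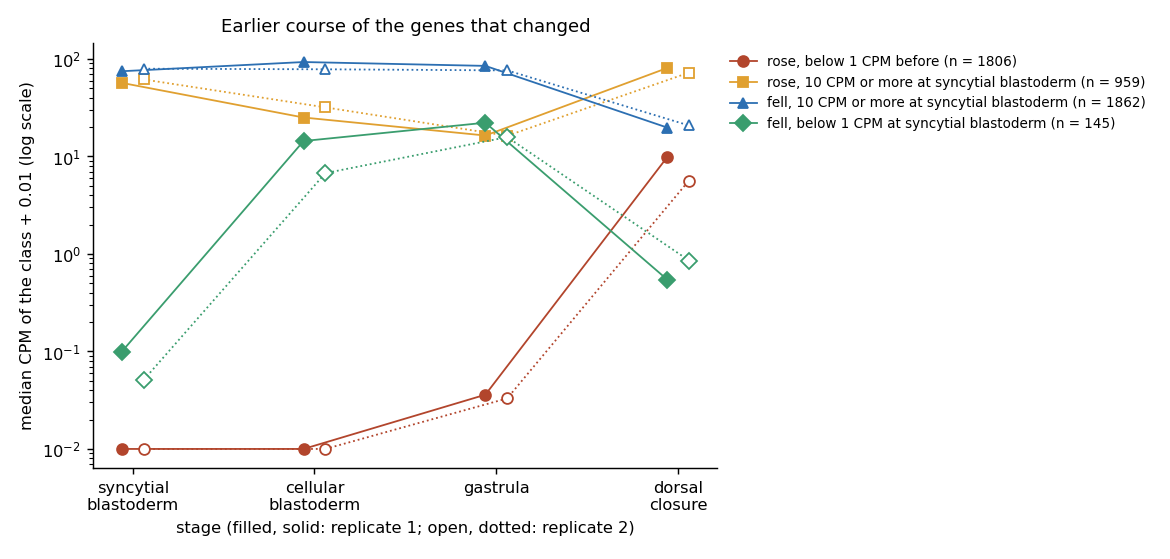
Points give the median CPM plus 0.01 on a log axis over 4 classes of called genes at each stage, with filled points and solid lines for replicate 1 and open points and dotted lines for replicate 2. The 1862 falls present at syncytial blastoderm stay between 74.9 and 93.1 CPM until gastrula. The 1806 rises below 1 CPM in every blastoderm and gastrula library have medians of 9.82 and 5.66 CPM at dorsal closure. Germ band extension is not shown, so a start at that stage cannot be told from one at dorsal closure.

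Sorted by their level at syncytial blastoderm, genes differed in how often they rose or fell. Among the 3732 tested genes below 1 CPM in both syncytial blastoderm libraries, 2157 rose (57.8%) and 145 fell (3.89%). Of the 1835 of them that met the filter without the dorsal closure libraries, 663 rose (36.1%) and 145 fell (7.9%). Among the 5871 genes that reached 10 CPM in both, 959 rose (16.3%) and 1862 fell (31.7%). Falls outnumbered rises in the latter class under every scaling tried, with 1110 rises and 1657 falls under DESeq2's size factors and 812 and 2150 with total counts alone. They also did so without gastrula replicate 1 (489 and 1012) and without gastrula replicate 2 (418 and 1126), the libraries whose removal cost the most calls.

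The 959 rises present at syncytial blastoderm held more of the dorsal closure reads than the 1806 below 1 CPM in every blastoderm and gastrula library. Rises in neither class are not split further here. All 3470 rises together held 4.79% and 5.14% of the gene reads in the gastrula libraries and 37% and 29.4% in the dorsal closure libraries. Of this, the 1806 genes below 1 CPM in every blastoderm and gastrula library contributed 11.9% and 5.68%. The 959 genes present at syncytial blastoderm contributed 17.3% and 15.5%. Within the latter, 516 genes that had been at or above 10 CPM in every blastoderm and gastrula library held 3.9% and 4.32% at gastrula and 14.4% and 13.5% at dorsal closure. The genes that fell held 37.2% and 31% at gastrula and 7.93% and 7.86% at dorsal closure. In the blastoderm libraries they had held 30.1% to 35.4%. The share of the rises called with no block was lower, at a mean of 25.4% over the dorsal closure libraries against 33.2% with it, and that of the falls at gastrula was 18.2% against 34.1%.

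**Figure D5:**
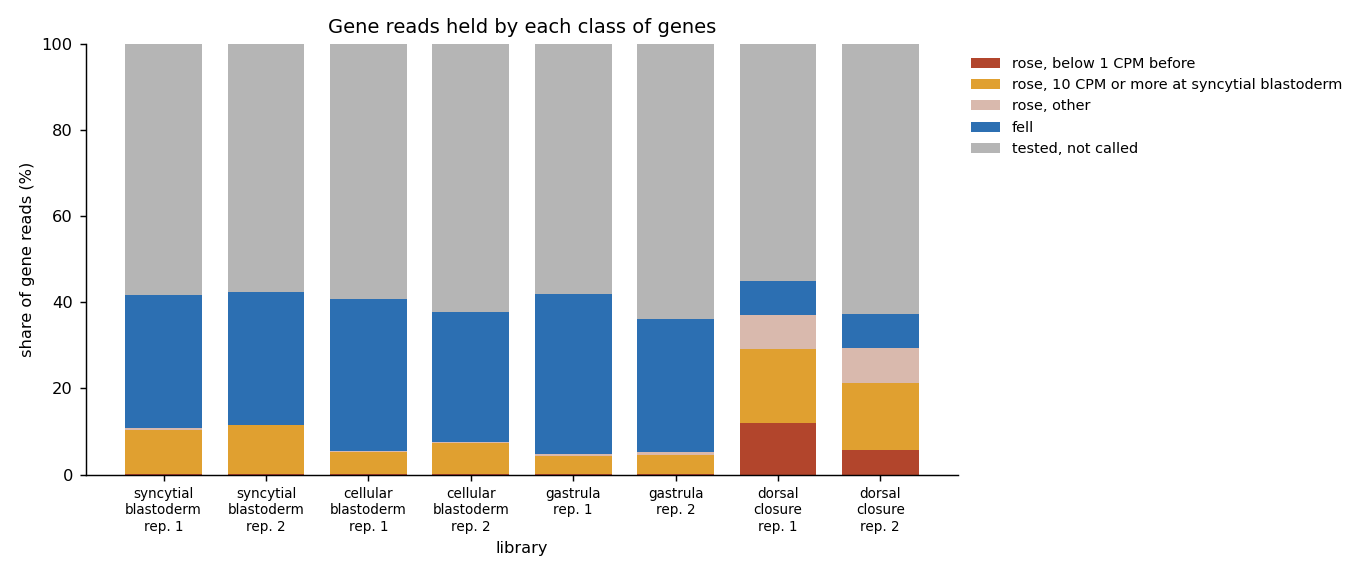
Stacked bars give the percentage of gene reads in each of 8 libraries held by genes that rose (split by their earlier level), fell, or were tested and not called. The genes that rose take 37% and 29.4% of the dorsal closure reads and those that fell 7.93% and 7.86%, while uncalled genes hold 55% to 63.9% of every library.

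Most of the top-ranking transcripts kept their place. Among the 100 most abundant genes of a library, 78 were shared by the gastrula replicates and 75 by the dorsal closure replicates. Gastrula and dorsal closure libraries of the same replicate number shared 74 in replicate 1 and 77 in replicate 2, about as many as replicates of one stage. In all 4 libraries 58 genes were among the top 100, of which 2 were called higher and none lower. Of the 78 genes in the top 100 of both gastrula libraries 10 fell and 2 rose, and of the 75 in the top 100 of both dorsal closure libraries 11 rose and none fell. A single one of these 75 had been below 1 CPM in both gastrula libraries. These shares of calls are below the background of 51%, but that background covers genes of every level. Among the 157 genes with a mean of 1000 CPM and above, 12.7% rose and 14.6% fell. A place in the top 100 at both stages also selects against large changes, and a place at 1 stage favours a direction.

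Of the tested genes, 5427 (49%) were not called. In 730 of them the fitted change was 4-fold or more (531 higher and 199 lower), at a median of 0.672 CPM over the 4 libraries, and 71 of these moved in opposite directions in the replicate series. A change of less than 2-fold in both series was seen in 2440 of the 5427. Missing the threshold does not show that a gene did not change.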

How the data were processed

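Each file deposited by the authors holds the raw gene counts of 1 library, made with STAR and HTSeq per the submitters' processing notes. Versions, genome build, annotation and strand setting: not given in the sources used here. Genes that overlap, lie antisense or have near-identical copies may therefore share or lose reads. The 5 rows that name no gene entered no library size or test; reads assigned to no gene were 16% to 25% of all reads in the 4 libraries and multiply aligned ones 6.61% to 10.7%.

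Counts were analysed in R 4.3.3 with edgeR 4.0.16 (filterByExpr by stage, TMM, robust quasi-likelihood fit). The fit held 8 libraries, without germ band extension, with 1 coefficient per stage and the replicate number as a block (3 residual degrees of freedom). Standard errors are the unshrunken log2 change over the root of F. Log2 CPM adds a prior count of 2. P-values measure the spread between pools that is left after the block, estimated over all 8 libraries. The dorsal closure pools lay further apart than those of the other stages in the fit. Between them 22% of genes differed 4-fold or more, against 8.23% to 13.4% in the others. The steps were tested on simulated data that held no shift between replicates. They recovered 2% of 2-fold, 50% of 4-fold, 76% of 8-fold and 100% of 16-fold changes (50 genes each), with 9 false calls. Only these genes were changed, out of 10887 run, and none was taken from the lowest levels. In the data 51% of the tested genes were called, so the adjustment of p was less strict there. The rates recovered do not carry over to the data.

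The labels number the replicates 1 and 2 without saying what a number marks. The libraries were paired by number by plan, whatever a check of the pairing showed. In that check, replicate 2 minus replicate 1 differences correlated across genes in all 6 pairs of the 4 stages (r from 0.329 to 0.615). The common biological coefficient of variation was 0.42 with the block and 0.64 without.

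The comparison, the tests and the classes of genes were chosen with earlier results of these data known. Named identifiers are the 2 rises and 2 falls with the largest smaller paired difference among called genes that met the limits given with them. Alternatives were other scalings, filters, DESeq2 1.42.0, limma-voom (limma 3.58.1), other sets of libraries, no block, a minimum change and leaving out each library.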

Additional observations from a re-analysis of the deposited data

How the results depend on the processing

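The numbers of genes higher (3470) and lower (2174) stayed within 1.5 times under the other scalings, filters, DESeq2 and limma-voom. Without the replicate block the falls numbered 1089, and 1293 with a minimum log2 fold change of 1. With all 10 libraries and no block 2008 genes rose and 1414 fell, and with only the 4 libraries of the stages and no block 739 fell. Leaving out each library gave 1851 to 3463 rises and 1138 to 2621 falls with the block. Leaving out each gastrula or dorsal closure library without the block, a choice made after seeing the data, gave 886, 878, 1600 and 2070 rises and 430, 551, 783 and 974 falls (gastrula replicates 1 and 2, then dorsal closure 1 and 2). The lone library of a stage is taken to vary as the others do. The share of rises among calls (61.5%) was 65.7% with DESeq2's size factors, 56.5% with total counts, 53.1% with the stricter filter and 70.4% with no replicate block. It was 51.5% with all 10 libraries and the block and 58.7% without it, 59.8% with only the 4 libraries and the block and 76.1% without it, and 68.8% with the minimum change. Leaving out libraries gave 53.3% to 63.2% with the block and 67.3%, 61.4%, 67.1% and 68% without it, in the same order. The median log2 fold change over tested genes moved from 0.363 to 0.514 with DESeq2's size factors and 0.184 with total counts. The onset set ranged from 723 to 1011 genes and the loss set from 23 to 51 without single libraries. Rises held a mean of 25.4% of dorsal closure reads with no replicate block and 47.2% by DESeq2's calls, and falls 18.2% of gastrula reads with no replicate block. Among genes that met the count filter without the dorsal closure libraries, a choice made after seeing the data, the share of rises below 1 CPM at syncytial blastoderm was 33.6% in place of 62.2%, and the share of genes below 1 CPM there that rose was 36.1% in place of 57.8%; fewer genes are tested by construction. Other causes were not tested. The 4 named identifiers kept their direction and an adjusted p under 0.05 in all 25 alternatives, and no call of these fits was in the opposite direction to the main one. Counting error limits levels near 3 counts.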
